A study of Mus musculus with 4 samples.

Results

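Matrix metalloproteinases and their inhibitors were examined in RNA from primary mouse microglia treated with epigallocatechin gallate (EGCG), a green tea flavan-3-ol. The set comprised 10 genes chosen by name, 7 metalloproteinases (Mmp2, Mmp3, Mmp8, Mmp9, Mmp12, Mmp13 and Mmp14) and 3 tissue inhibitors of metalloproteinases (Timp1, Timp2 and Timp3), out of 54532 genes and 22046 protein-coding genes measured in every library. All 10 had at least 10 counts summed over the libraries and were among the 13811 genes tested.

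The samples were 4 libraries of polyadenylated RNA, 2 from cells given 1 µM EGCG for 24 h and 2 from cells given the solvent DMSO for the same time (Vehicle). The cells came from the cortex of male CD1 mouse pups in the first days after birth. In both groups they had been grown as mixed glia with GM-CSF, separated from the astrocyte layer with trypsin, and kept without serum in a medium containing IL-34, TGFβ2, GM-CSF and cholesterol. The replicates are described as independent, but no source used here says whether they came from separate litters or cultures, and p-values measure the spread between these samples, which may in part be technical. Replicate 1 had total counts of 33805071 (Vehicle) and 34300679 (EGCG), and replicate 2 had 36307930 and 54970300.

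Matrix metalloproteinases are zinc-dependent enzymes that cleave collagens, elastin, proteoglycans and many signalling proteins outside the cell. Most are secreted as inactive proenzymes that other proteases, plasmin among them, open, and the TIMP proteins bind and block the active enzymes. In the brain, activated microglia are a known source of several of them, and they take part in matrix remodelling, blood-brain barrier opening and synaptic change.

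Before the individual genes, 1 library stood apart in markers of another cell type. The microglial list (12 genes, among them Csf1r and Trem2) summed to 5441 and 5939 CPM (counts scaled to the size of the library) in Vehicle and EGCG replicate 1 and to 6943 and 7048 CPM in replicate 2, with no marker at 0 in any library. None of these markers differed between EGCG and Vehicle by over 1 on the log2 scale in either replicate. The fibroblast or pericyte list (13 genes, 12 tested) summed to 543 CPM (Vehicle) and 78.5 CPM (EGCG) in replicate 1, and to 212 and 231 CPM in replicate 2. In replicate 1, 10 of the 12 tested were lower in EGCG by over 1 on the log2 scale, with a list median of -5.12. In replicate 2 none was, with a list median of 0.01. Col1a1, a chain of the main fibrillar collagen, was at 3962 and 4 counts in replicate 1, against 1344 and 2040 in replicate 2. The exceptions in replicate 1 were Pdgfra and Cspg4, at 122 and 141 counts for Pdgfra and at 2478 and 2323 for Cspg4. Cspg4 was at 75.5 CPM (Vehicle) and 72.5 CPM (EGCG) there, and so made up most of the list's sum in EGCG replicate 1. Of the astrocyte list (8 genes, 7 tested), 3 were also lower by over 1 on the log2 scale in EGCG replicate 1. Their counts in Vehicle and EGCG were 160 and 1 for Gja1, 20 and 0 for Aqp4 and 12 and 2 for Gfap. The rest of those tested differed by less than 1, with 33 and 23 counts for Slc1a2, 73 and 51 for Slc1a3 and 102 and 81 for Aldoc. Aldh1l1 was higher in EGCG, at 339 and 383 counts. The astrocyte list summed to 22.6 CPM (Vehicle) and 16.9 CPM (EGCG) in replicate 1, with a median of -0.47. EGCG replicate 1 held almost none of the collagen transcripts present in the other 3 libraries, and each result below that rests on it is given for the replicates separately. In bulk RNA, fewer cells of a type and less RNA per cell cannot be told apart.

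The set was also described by position and promoter sequence. Of the 10 genes, 4 (Mmp13, Mmp12, Mmp3 and Mmp8) lie in a cluster of 7 metalloproteinase genes that spans 309 kb of chromosome 9 in GRCm38, in the order Mmp13, Mmp12, Mmp1b, Mmp3, Mmp10, Mmp8 and Mmp27. RefSeq promoter windows on GRCm38.p6 were found for 8 of the 10 genes, 9 windows in all because Mmp12 has a pair of annotated starts. Mmp2 and Mmp9, which lie outside the cluster, had no window and were not searched. The 7 letters TGAGTCA, or on the other strand TGACTCA, form the binding motif of AP-1, the Fos and Jun transcription factors long known from metalloproteinase promoters. They occurred within 250 bases before the start in 3 of the 9 windows, those of Mmp13, Mmp12 (its second start) and Mmp3, all in the cluster, and in 4.46% of 32851 RefSeq promoter windows of the same length. The windows of Mmp8 and of the first start of Mmp12, also in the cluster, lacked the motif. The first base of the motif lay 35, 44 and 46 bases before the start of Mmp13, Mmp12 and Mmp3. The letters TATAAA also stood before the start of Mmp13 and Mmp3, by 16 and 7 bases, and occurred in 7.59% of all windows, and both motifs together occurred in 0.481%. The matches are descriptions of the sequence, and binding was not measured. The 120 bases before each of these starts are shown 5′ to 3′ because they carry the shared motif, which is in capitals. All 3 lie on the plus strand, at chr9:7272394-7272513 for Mmp13, chr9:7347254-7347373 for Mmp12 and chr9:7445702-7445821 for Mmp3.
Mmp13: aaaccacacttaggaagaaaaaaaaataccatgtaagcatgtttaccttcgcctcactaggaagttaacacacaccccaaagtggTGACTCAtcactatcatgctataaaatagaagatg
Mmp12: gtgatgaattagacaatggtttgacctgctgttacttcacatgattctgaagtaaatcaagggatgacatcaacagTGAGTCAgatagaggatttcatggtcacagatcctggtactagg
Mmp3: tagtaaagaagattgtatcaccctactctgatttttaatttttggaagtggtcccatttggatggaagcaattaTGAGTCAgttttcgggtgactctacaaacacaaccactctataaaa

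Levels of different genes were compared in TPM, which divides counts by the annotated gene length before scaling each library to the same total. Mmp12, the macrophage elastase, was the highest of the set in every library, at 5381 and 5229 TPM in Vehicle and EGCG replicate 1 and 1806 and 2125 TPM in replicate 2, which placed it 14th, 14th, 39th and 33rd among all protein-coding genes. Its group means were 3594 ± 2528 TPM in Vehicle and 3677 ± 2195 in EGCG (SD, n = 2 libraries each). Mmp12 alone took 1.41%, 1.37%, 0.448% and 0.530% of all counts in Vehicle 1, EGCG 1, Vehicle 2 and EGCG 2. Mmp13, a collagenase, followed in replicate 1 with 1613 and 1510 TPM, but in replicate 2, at 252 and 312 TPM, it lay below Timp2. Timp2 was the steadiest of the set, between 532 and 561 TPM in all 4 libraries, and exceeded the other inhibitors and the 5 remaining metalloproteinases everywhere.

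**Figure D1:**
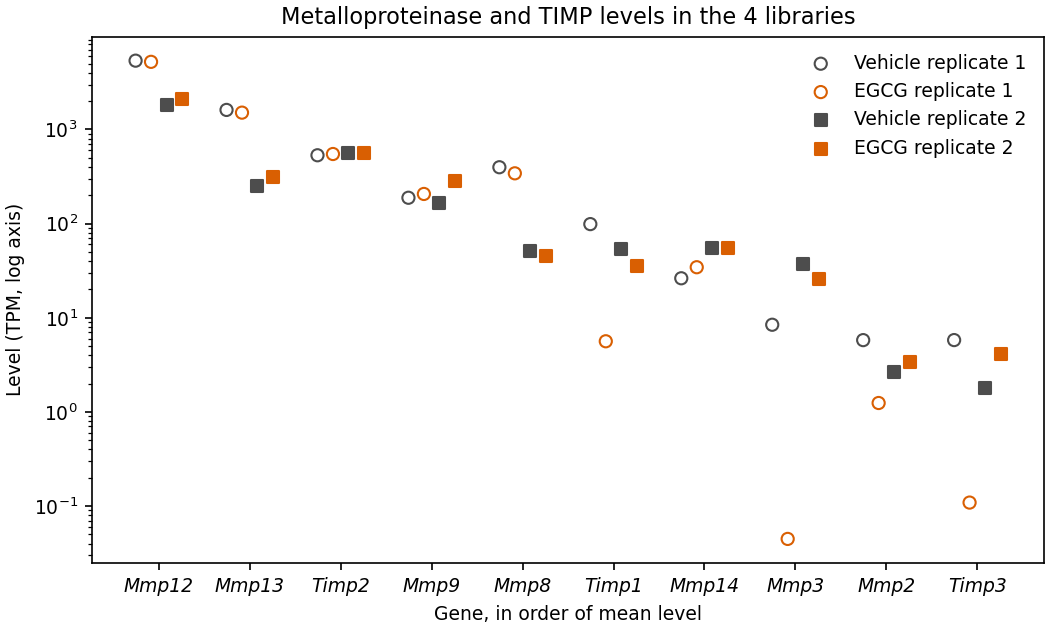
Level of each gene in TPM (log axis) in the 4 libraries, with open circles for replicate 1, filled squares for replicate 2, grey for Vehicle and orange for EGCG. Mmp12 is highest in every library, Mmp13 and Mmp8 separate by replicate rather than by treatment, and the lowest points of Timp1, Mmp3, Mmp2 and Timp3 are all EGCG replicate 1.

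Below these, the order of the levels depended on the replicate. Mmp9 was at 188 and 207 TPM in replicate 1 and 167 and 287 in replicate 2, while Mmp8 was at 397 and 342 TPM in replicate 1 and 50.6 and 45.6 in replicate 2, so that the pair changed places. Timp1, Mmp14 and Mmp3 overlapped in level, with ranges of 5.63 to 98.8, 26.3 to 55.7 and 0.045 to 36.9 TPM. Mmp2 (1.24 to 5.79 TPM) and Timp3 (0.109 to 5.79 TPM) were lowest on average and did not differ beyond their spread. The summed metalloproteinases exceeded the summed inhibitors 11.97-fold and 13.2-fold in Vehicle and EGCG replicate 1 and 3.85-fold and 4.77-fold in replicate 2, on the TPM scale. Leaving out Mmp12 gave ratios of 3.52 (Vehicle) and 3.78 (EGCG) in replicate 1 and of 0.915 and 1.22 in replicate 2, so that the inhibitors exceeded the remaining metalloproteinases in Vehicle replicate 2. Mmp12 supplied 70.6% to 76.2% of the metalloproteinase sum, and Timp2 supplied 83.6% to 99.0% of the inhibitor sum. The annotated length of Mmp12 (7237 bases) includes a stretch that matches transcripts of 101 other genes at 90% identity or more over at least 200 bases. These 101 genes together had 6891, 6753, 7402 and 11283 counts per library, against 477222, 469567, 162289 and 291139 for Mmp12, and how the authors' counting treated shared reads is not given in the sources used here.

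The RNA sequencing compared the transcriptome of microglia given EGCG with that of microglia given Vehicle. By the quasi-likelihood test of edgeR, fitted on treatment alone, 0 of the 10 genes had an unadjusted p under 0.05, where 0.116% of all genes tested did, and their adjusted p was 1.00 throughout (Benjamini-Hochberg over 13811 genes). At an adjusted p under 0.1 the test called 0% of all genes. This fit left the difference between the replicates in its error, and results with a replicate term are given below. The median log2 fold change (EGCG minus Vehicle) of the 10 genes was -0.08, against 0.01 over all genes tested, with 5 above and 5 below 0. An exact two-sided permutation test of 2 against 2 libraries cannot give a p below 0.333. In 7 of the 10 genes the difference had the same direction in both replicates, where 50.6% of all genes did, and the exceptions were Mmp2, Mmp13 and Timp3. The EGCG and Vehicle libraries did not overlap in CPM for 2 genes, Mmp9 and Timp1, and for 11.9% of all genes.

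The libraries differed more by replicate than by treatment. The mean size of the replicate differences exceeded that of the treatment differences by over 0.001 on the log2 scale in 6 of the 10 genes and in 76.5% of all genes tested. In Mmp2 and Timp3 the sizes were equal within 0.001, as in 11.7% of all genes, which follows from the arithmetic where the differences have opposite signs. In 3 genes (Mmp8, Mmp12 and Mmp13) replicate 2 was lower than replicate 1 by over 1 on the log2 scale in both groups, where 7.73% of all genes were, and in 1 gene (Mmp3) it was higher by that much in both, where 4.31% were. These are the 4 genes of the set that lie in the chromosome 9 cluster, and a link with position was not tested. Mmp8 was 8.65-fold lower in replicate 2 than in replicate 1 of Vehicle and 8.46-fold lower in EGCG. Mmp13 was 7.05-fold and 5.46-fold lower, and Mmp12 3.28-fold and 2.78-fold lower. Mmp3, which lies between Mmp12 and Mmp8, was 3.98-fold higher in replicate 2 of Vehicle and, from the single count of EGCG replicate 1, 516-fold higher in EGCG (95% counting interval 92.3 to 20393). Once a replicate term entered the model as a block, 3 genes had an unadjusted p under 0.05 in edgeR (Mmp8, Mmp9 and Timp1), where 3.21% of all genes did, and each had an adjusted p of 0.995.

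**Figure D2:**
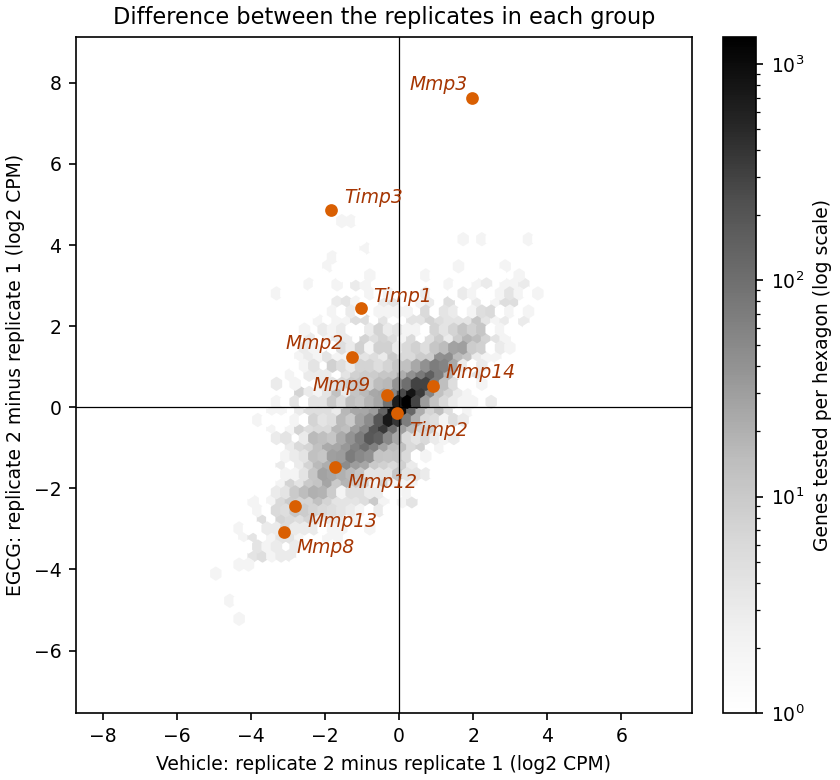
Log2 CPM difference of replicate 2 minus replicate 1 in Vehicle (horizontal axis) and in EGCG (vertical axis), with all 13811 genes tested as grey hexagons shaded by their number and the 10 genes of the set in orange. Mmp8, Mmp13, Mmp12 and Mmp14 lie along the diagonal, where the replicates differ alike in both groups, while Mmp3, Timp3, Timp1 and Mmp2 lie above it.

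The collagenases cleave the triple helix of fibrillar collagens. Mmp8 (ENSMUSG00000005800, chromosome 9, 7558456 to 7568485, plus strand), known as neutrophil collagenase, was at 359.6 CPM in Vehicle and 321 in EGCG replicate 1, and at 41.5 and 38.0 CPM in replicate 2. It was lower with EGCG in each replicate, by log2 differences of -0.16 and -0.13, and the groups overlapped because of the distance between the replicates. Its log2 fold change was -0.16 with a standard error of 1.45 (unadjusted p of 0.918) in edgeR without the block and -0.15 with a standard error of 0.05 (unadjusted p of 0.0284) with it. In DESeq2 with the block the p was 0.0643. Of the neutrophil list, S100a9, Ly6g and Elane had 0 counts in all 4 libraries, and the list, 9 genes, summed to 12.6, 14.3, 3.16 and 3.75 CPM, most of it S100a8.

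Mmp13 (ENSMUSG00000050578, chromosome 9, 7272514 to 7283331, plus strand) encodes collagenase 3, the main interstitial collagenase of rodents. It was at 1610 CPM in Vehicle and 1563 in EGCG replicate 1, and at 228 and 286 CPM in replicate 2. The within-replicate log2 differences were -0.04 and 0.33, and the groups overlapped. The log2 fold change without the block was 0.01 with a standard error of 1.26 (unadjusted p of 0.995 in edgeR). It lay below 0 in other fits without the block, which changed the scaling, the filter, the genes or the tool. With the block it was 0.14 with a standard error of 0.10 (unadjusted p of 0.225) in edgeR. In DESeq2 with the block it was 0.13 with a standard error of 0.24 (unadjusted p of 0.578).

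Mmp3 (ENSMUSG00000043613, chromosome 9, 7445822 to 7455975, plus strand) encodes stromelysin 1, which degrades proteoglycans and laminin and activates other proenzymes, Mmp9 among them. In replicate 1 it had 186 counts with Vehicle and 1 with EGCG, a ratio of 182 whose 95% counting interval ran from 32.2 to 7212. In replicate 2 it was at 22.5 CPM in Vehicle and 16.1 in EGCG, 1.40-fold lower (95% counting interval 1.27 to 1.54). Both replicates had the lower value in EGCG, but Vehicle replicate 1, at 5.67 CPM, lay below EGCG replicate 2, so that the groups overlapped. Its fitted log2 fold change was -0.80 in edgeR and -0.81 in DESeq2 without the block, and -1.75 and -2.95 with it. Only DESeq2 with the block called Mmp3 (adjusted p = 0.0433), where 0.0507% of all genes had an adjusted p under 0.1. In edgeR the unadjusted p was 0.720 without the block and 0.119 with it. DESeq2 with the block also gave Mmp3 and Mmp14 an unadjusted p under 0.05, 2 of the 10 genes, where 1.11% of all genes did.

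Mmp12 (ENSMUSG00000049723, chromosome 9, 7344381 to 7369499, plus strand) degrades elastin and is a typical product of macrophages. Its counting error was the smallest of the set, and the difference between the replicates was far larger than it. EGCG over Vehicle was 1.01 (95% counting interval 1.00 to 1.01) in replicate 1 and 1.19 (1.18 to 1.20) in replicate 2. It was at 14544 CPM in Vehicle and 14655 in EGCG (replicate 1), and at 4427 and 5277 CPM (replicate 2), and the groups overlapped. The log2 fold change was 0.07 with a standard error of 0.83 (unadjusted p of 0.935) in edgeR without the block and 0.13 with a standard error of 0.13 (unadjusted p of 0.340) with it.

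The gelatinases cleave denatured collagen and the type IV collagen of basement membranes. Mmp9 (ENSMUSG00000017737, chromosome 2, 164940780 to 164955850, plus strand), gelatinase B, was at 249 CPM in Vehicle and 283 in EGCG replicate 1, and at 200 and 348 CPM in replicate 2. Both EGCG libraries lay above both Vehicle libraries. The ratio of EGCG to Vehicle was 1.14 (95% counting interval 1.10 to 1.17) in replicate 1 and 1.74 (1.70 to 1.79) in replicate 2. The log2 fold change was 0.49 with a standard error of 0.21, and Mmp9 ranked 43rd of 13811 genes by p (unadjusted p of 0.0755 in edgeR, adjusted p of 1.00). With the block the p was 0.0171 in edgeR and 0.129 in DESeq2. Its group means were 224 ± 34.7 CPM in Vehicle and 316 ± 45.9 in EGCG (SD, n = 2 libraries each).

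Mmp2 (ENSMUSG00000031740, chromosome 8, 92827291 to 92853420, plus strand), gelatinase A, is made mainly by stromal cells and is activated on the cell surface by Mmp14 with Timp2. Its counts in Vehicle and EGCG were 239 and 52 (replicate 1) and 110 and 214 (replicate 2). In CPM it was 4.49-fold lower in EGCG in replicate 1 (95% counting interval 3.31 to 6.18) and 1.29-fold higher in replicate 2 (1.02 to 1.64), so the directions differed and the groups overlapped. The edgeR log2 fold change without the block was -0.90 with a standard error of 0.69 (unadjusted p of 0.263).

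Mmp14 (ENSMUSG00000000957, chromosome 14, 54431612 to 54445364, plus strand) encodes a membrane-anchored metalloproteinase. It was at 58.5 CPM in Vehicle and 79.4 in EGCG replicate 1, and at 110.0 and 114 CPM in replicate 2. EGCG was higher in both, by 1.36-fold (95% counting interval 1.28 to 1.44) and 1.04-fold, where the interval of 0.995 to 1.08 included 1. The groups overlapped, since the Vehicle library of replicate 2 exceeded the EGCG library of replicate 1. With the block the log2 fold change was 0.24 in both tools, with a p of 0.0607 in edgeR and 0.0428 in DESeq2 (adjusted p = 1.00 in DESeq2).

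The inhibitors differed from each other in their pattern. Timp2 (ENSMUSG00000017466, chromosome 11, 118301069 to 118355740, minus strand) was at 774 and 828 CPM in replicate 1 and 740 and 747 CPM in replicate 2, in Vehicle and EGCG. Its log2 differences were 0.10 and 0.01, smaller in mean size than those of any other gene of the set, and the groups overlapped. The log2 fold change was 0.06 with a standard error of 0.17 (unadjusted p of 0.756 in edgeR).

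Timp1 (ENSMUSG00000001131, chromosome X, 20870166 to 20874735, plus strand), an inducible inhibitor with cytokine-like actions of its own, was at 32.8 CPM in Vehicle and 1.93 in EGCG replicate 1, and at 16.0 and 10.7 CPM in replicate 2. Both EGCG libraries lay below both Vehicle libraries. The fold difference was unequal, 16.9-fold (95% counting interval 13.1 to 22.2) in replicate 1 and 1.49-fold (1.33 to 1.68) in replicate 2. The log2 fold change was -1.94 with a standard error of 0.94 (unadjusted p of 0.110 in edgeR, adjusted p of 1.00). It was -2.10 with the block (unadjusted p of 0.0465 in edgeR). DESeq2 without the block gave a p of 0.0241, where 0.174% of all genes had an unadjusted p under 0.05, and with the block 0.0880. Timp1 lies within Syn1 on the other strand, which had 134, 110, 176 and 280 counts, and the study's methods describe the quantification as strand-specific without giving the counter's setting.

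Timp3 (ENSMUSG00000020044, chromosome 10, 86300372 to 86349506, plus strand), the inhibitor that stays bound to matrix, went in opposite directions. It was at 578 and 11 counts in the Vehicle and EGCG libraries of replicate 1, 51.3-fold lower after scaling (95% counting interval 28.5 to 103), and at 181 and 636 counts in those of replicate 2, 2.33-fold higher (1.98 to 2.77). The groups overlapped. The log2 differences were -5.49 and 1.21, and the fitted log2 fold change of -0.92 had a standard error of 1.62 (unadjusted p of 0.601 in edgeR). Timp3 was the sole gene of the set past 1 on the log2 scale in replicate 2, where 4.47% of all genes were. Syn3, which overlaps it on the other strand, had at most 2 counts in a library.

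**Figure D3:**
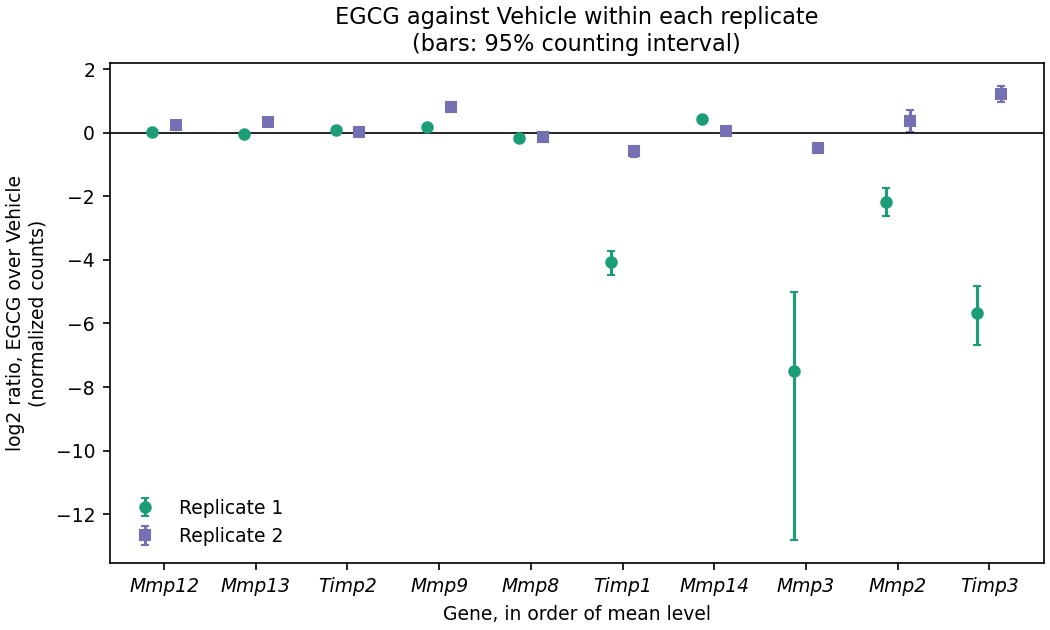
Log2 ratio of EGCG over Vehicle for each gene within replicate 1 (green circles) and replicate 2 (purple squares), with bars for the 95% counting interval, which covers counting error only. The replicate 1 points of Timp1, Mmp3, Mmp2 and Timp3 lie far below 0, and those of replicate 2 lie between -0.58 (Timp1) and 1.21 (Timp3).

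In replicate 1, 4 genes (Mmp2, Mmp3, Timp1 and Timp3) differed between EGCG and Vehicle by over 1 on the log2 scale, all lower in EGCG, where 7.03% of all genes differed by that much in either direction. Their log2 differences were -2.13, -6.12, -4.05 and -5.49. In the same libraries the fibroblast or pericyte list was at 543 and 78.5 CPM, of which Cspg4 was 75.5 and 72.5 CPM. The list members Dcn and Col3a1, for example, were at 788 and 2 and at 4417 and 6 counts. In replicate 2, where the list was at 212 and 231 CPM, the log2 differences of these 4 genes were 0.36, -0.48, -0.58 and 1.21. The remaining 6 genes differed by at most 0.44 in replicate 1. The part of the cells behind the fibroblast or pericyte and astrocyte lists in the results of these 4 genes was not tested.

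**Figure D4:**
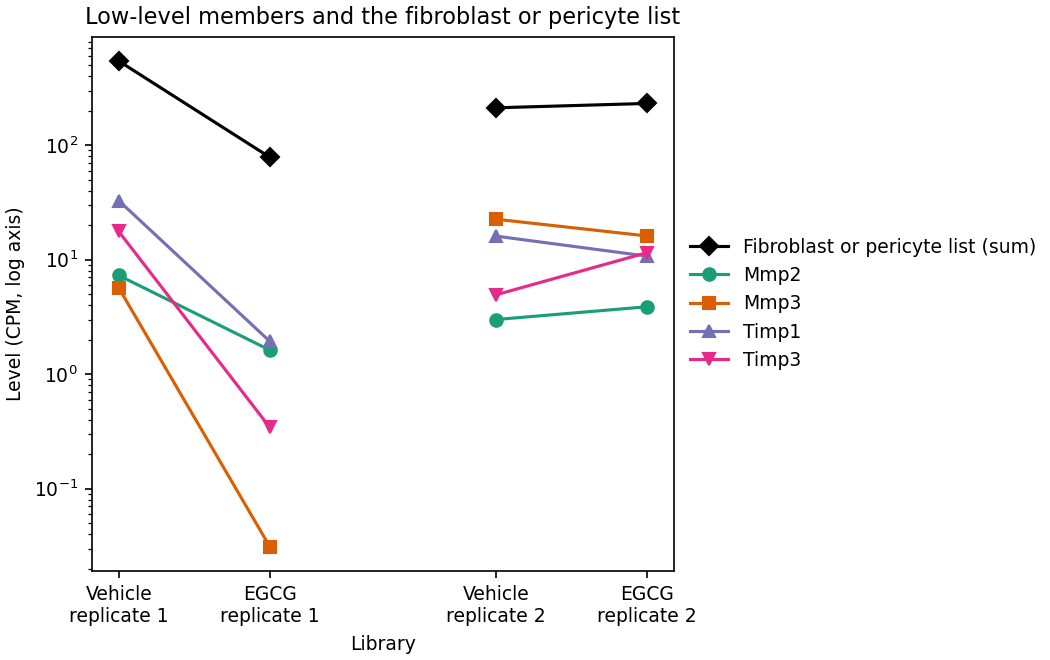
CPM (log axis) of Mmp2, Mmp3, Timp1 and Timp3 and the summed CPM of the fibroblast or pericyte list in each library, with a line joining Vehicle and EGCG of a replicate. All 5 series are lower in EGCG in replicate 1, where the list is at 543 and 78.5 CPM, of which Cspg4 is 75.5 and 72.5. In replicate 2 the list is at 212 and 231 CPM, Timp3 is higher in EGCG and Timp1 and Mmp3 are lower.

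The genes most like 4 of the set were found by the distance between their log2 CPM profiles over the 4 libraries, each centred on its own mean, among 11205 genes. For Mmp3 they were Lum, a collagen-binding proteoglycan (distance 1.57), Serpinf1, a secreted serpin (1.75), and Ereg, a ligand of the EGF receptor (1.87), against 6.46 for the median gene. For Timp3 they were Ctgf (0.49), the endocytic collagen receptor Mrc2 (0.56) and Vgll3 (0.61), against a median of 4.28. Each of these 6 genes had at most 14 counts in EGCG replicate 1, a trait favoured by their choice for likeness to Mmp3 and Timp3. For Mmp12 they were the VEGF receptor Flt1 (0.033), H2-DMa, which loads peptides onto MHC class II (0.078), and S100a10 (0.083), against a median of 1.66. Flt1 is also on the endothelial list of 7 genes. Of the others, Cldn5 and Emcn had 0 counts in every library, Tek had at most 3, Cdh5 had 13 to 79 and Kdr 109 to 169, and Pecam1 had 2 and 3 counts in replicate 1 and 580 and 741 in replicate 2. For Mmp13 they were Zranb3 (0.050), Vsig8 (0.072) and the transcription factor Runx3 (0.097), against a median of 2.69. The likeness is a description over 4 libraries, and the genes compared share the libraries and their depths.

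Of 17 other family members, 11 were tested, and none had an unadjusted p under 0.05 in edgeR with or without the block or in DESeq2 with the block (0 in each). Of all genes tested, 3.21% had one in edgeR with the block, 0.116% without it and 1.11% in DESeq2 with the block. The genes with a mean over 1 CPM were Mmp19, Mmp25, Mmp10, Mmp11 and Mmp27. Mmp19 was at 229 CPM in Vehicle and 163 in EGCG replicate 1 and at 61.0 and 61.5 in replicate 2, higher in replicate 1 like the cluster's Mmp8, Mmp12 and Mmp13. Mmp25, a membrane-anchored enzyme of leukocytes, ran the other way, at 0.152 and 0.437 CPM in replicate 1 and 7.12 and 8.05 in replicate 2. Within the cluster, Mmp10 and Mmp27 averaged 2.40 and 1.67 TPM and Mmp1b 0.023 TPM. Mmp10, Mmp27 and Mmp11 were also higher in replicate 1. Mmp10 was at 2.96 CPM (Vehicle) and 2.00 CPM (EGCG) in replicate 1 and at 0.573 and 0.616 in replicate 2. For Mmp27 the values were 1.95 and 2.00 against 1.01 and 0.489, and for Mmp11, outside the cluster, 2.26 and 1.72 against 0.764 and 1.27. Mmp7 and Mmp21 had 0 counts in every library.

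Genes that activate or restrain the enzymes were read from a list of 34, of which 33 were tested. Without the block none had an edgeR p under 0.05, and with it 4 were higher in EGCG and 2 lower, where 3.21% of all genes were called. DESeq2 with the block called 3 (Plau, Itgb3 and Serpinb2), where it called 1.11% of all genes. The adjusted p in edgeR with the block was 0.583 for Serpinb2 and 0.995 for the other 5. In DESeq2 with the block it was 0.00116 for Serpinb2 and 0.0207 for Plau, and above 0.1 for Itgb3. That fit called 0.0507% of all genes at an adjusted p under 0.1. The higher ones were Plau, the urokinase that makes plasmin (1060 and 1265 CPM in replicate 1, 432 and 560.4 in replicate 2), its receptor Plaur, the integrin subunit Itgb3 and the protease Adamts1. Their p with the block was 0.0041, 0.0445, 0.0466 and 0.0314. The lower ones were Serpinb2, an inhibitor of urokinase (67.4 and 37.7 CPM in replicate 1, 26.8 and 17.4 in replicate 2, unadjusted p of 0.00013), and Furin, a convertase that activates Mmp14 (88.0 and 74.5 CPM in replicate 1, 114.9 and 108 in replicate 2, unadjusted p of 0.0471). The median of the list was -0.13 for the log2 differences of replicate 1 and 0.03 for those of replicate 2, and 19 of the 33 genes had the same direction in both, where 50.6% of all genes did.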

How the data were processed

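RNA was measured in 4 libraries, 2 per group, and the groups were taken from the sample labels. The deposited values are counts of reads per gene, as the authors made them, without normalization, with both treatments of a replicate and the annotated gene lengths in the same table. The submitters' processing notes name HISAT2 and GRCm38.p6. The study's methods describe strand-specific quantification. The counting program, its annotation and its strand setting are not given in the sources used here.

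Joining used the Ensembl identifier, leaving out loci assembled separately in each (697 and 329). Members, gene lists and tests were chosen with earlier results of these data known. Named genes were all 10 members, other family members with a mean over 1 CPM, pathway genes with an edgeR p under 0.05 with or without the block, and the 3 nearest profiles of Mmp3, Mmp12, Mmp13 and Timp3. Protein-coding genes whose counts reached 10 in the sum of all libraries were tested in R 4.3.3 with edgeR 4.0.16 (TMM, quasi-likelihood test), treatment being the only term, and with DESeq2 1.42.0 as an alternative. Thresholds were an unadjusted p of 0.05 and an adjusted p of 0.1. Log2 values per library had a prior count of 2, and TPM was computed from the gene lengths. Near-identical stretches were found with BLAST 2.17.0 in GENCODE M21 transcripts. The fits were also run on simulated data, where recovery of known changes was required only of those with the replicate block.

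The same-numbered libraries were taken as paired, since each replicate is a table of its own and its libraries deviated together (Pearson r = 0.64 across genes between the replicate differences of Vehicle and EGCG). The biological coefficient of variation was 0.404 without the block and 0.110 with it. Counting intervals are exact 95% intervals and cover counting error only. A count of 0 allows up to 3 counts.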

Additional observations from a re-analysis of the deposited data

How the results depend on the processing

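With treatment as the only term, the number of the 10 genes with an unadjusted p under 0.05 was 0 in edgeR. It was 3 with the replicate block, 1 (Timp1) in DESeq2 and 2 (Mmp3 and Mmp14) in DESeq2 with the block, and at an adjusted p under 0.1 it was 1 (Mmp3) in DESeq2 with the block. Over the alternatives that keep all libraries, 87 of 99 values kept their direction and their side of the threshold, 6 passed the threshold and 6 changed direction, all of these 6 for Mmp13. Its log2 fold change was -0.0038 in DESeq2, -0.0039 with the size factors of DESeq2 in edgeR, -0.031 with upper-quartile factors, -0.039 with total counts, -0.013 with at least 10 counts in every library (where Mmp3 was not tested) and -0.00078 with genes of all biotypes. These differ from its value of 0.01 by far less than its standard error of 1.26, and the cause was not tested. None of these fits had the replicate block, and with it the log2 fold change of Mmp13 was 0.14 in edgeR and 0.13 in DESeq2.

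Leaving out each library in turn gave a median log2 fold change from -0.70 (without Vehicle replicate 2) to 0.18 (without Vehicle replicate 1). In each fit the group with a lone library is assumed to vary like the other group, so only effect sizes are given. The lowest values of Mmp3, Timp1 and Timp3 below came from the fit without EGCG replicate 2. Without EGCG replicate 1, the library with few collagen transcripts, the median log2 fold change was -0.21. The log2 fold change ran from -8.69 to 0.51 for Mmp3, -2.40 to 2.11 for Mmp8, -0.85 to 1.17 for Mmp12, -1.68 to 2.02 for Mmp13, -0.19 to 0.71 for Mmp14, -0.019 to 0.098 for Timp2 and -5.05 to 0.27 for Timp3. Mmp2 (-1.69 to -0.12), Mmp9 (0.30 to 0.66) and Timp1 (-3.69 to -1.18) kept their direction in all 4 fits. Each fit had treatment as its only term and lacked a library of 1 replicate, so the difference between the replicates entered its estimate. Within the replicates, Mmp8 differed by -0.16 and -0.13, and Mmp2 went in opposite directions, by -2.13 and 0.36. Without gene length the order of levels changed in 3 of the 4 libraries, Timp1 falling below Mmp14 in Vehicle replicate 1 and Mmp13 below Mmp9 in EGCG replicate 2, for example. Low counts limit the precision for Mmp3 and Timp3 in EGCG replicate 1, with 1 and 11 counts. The total counts of that library (34300679) were close to those of Vehicle replicate 1 (33805071).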
